A study of Homo sapiens with 6 samples.

Results

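The centromere and kinetochore genes described here are 39 genes, taken from the 61204 rows of each deposited table by their gene symbols, and every symbol matched 1 row. They were measured by RNA sequencing in RKO cells, a human colorectal cancer cell line by the labels. The tested cells were transfected with siRNA against ANP32B (siANP32B, labelled ANP32B knockdown, 3 samples) and the others with a control siRNA (siCtrl, labelled ANP32B wild type, 3 samples), all in the same line with no other treatment named in the labels. ANP32B encodes an acidic nuclear phosphoprotein. The sources do not say which of the siANP32B sequences was used for these samples, nor whether replicates were grown apart as cultures of their own. Each p-value thus reflects how far these 6 samples scattered, and that scatter may be only technical.

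The kinetochore is the protein assembly that joins a chromosome to spindle microtubules in mitosis. It is built on centromeric chromatin, in which the histone H3 variant CENP-A marks the site, and which is bound by the constitutive centromere-associated network (CCAN). The CCAN recruits the KMN network (KNL1 with the Mis12 and Ndc80 complexes), whose Ndc80 complex binds microtubules together with the SKA complex. An outermost layer, the corona, holds motor proteins and proteins of the spindle assembly checkpoint, which delays anaphase until chromosomes are attached. Many of these genes are transcribed mainly in G2 and mitosis, so their mRNA is abundant in dividing cells. In bulk RNA, fewer cells in these phases and less mRNA per cell cannot be told apart. The members were divided by role into centromeric chromatin and CENP-A loading (6 genes), the CCAN (13 genes), the KMN network with ZWINT (10 genes), the SKA complex (3 genes) and the corona, motor adaptors and checkpoint (7 genes). The inner centromere in the strict sense, the home of the chromosomal passenger complex, has no gene among the 39, and its genes are given at the end with the other kinetochore genes.

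Levels are given in FPKM (fragments scaled to the length of the gene and to the sequencing depth of the sample) and rest on 14577044 to 16393123 fragments per sample in siANP32B and on 14304093 to 18987041 in siCtrl. ANP32B itself was at 72.5, 53.9 and 75.3 FPKM in the siANP32B samples, against 429, 466 and 452 FPKM in the siCtrl samples, which fits the labels. RKO cells held the epithelial markers EPCAM, KRT8 and KRT18 and the intestinal factor CDX2, while KRT19 was listed at 0 in all 6 samples, and CDH1, CDX1, VIL1, LGR5 and GPA33 averaged under 1 FPKM. Of the 15 markers of fibroblasts, leukocytes and endothelium, only COL1A1 averaged at least 1 FPKM. COL1A1 was lower in siANP32B (1.12, 2.02 and 2.02 FPKM, against 4.16, 2.82 and 3.99 FPKM in siCtrl, adjusted p = 0.0121), as was EPCAM (82.9% of the siCtrl mean, adjusted p = 0.0443), while KRT8, KRT18 and CDX2 were not called. The summed fibroblast markers, nearly all of it COL1A1, were at 1.28 to 2.3 FPKM in siANP32B and 3.08 to 4.31 FPKM in siCtrl. COL3A1 and DCN were listed at 0 in all samples. The summed endothelial markers were also lower (0.284 to 0.509 FPKM in siANP32B and 0.672 to 1.02 FPKM in siCtrl). The summed leukocyte markers were higher (0.499 to 1.17 FPKM in siANP32B and 0 to 0.375 FPKM in siCtrl). The part of these markers in the results was not tested. The siCtrl samples differed among themselves in FBL, a nucleolar methyltransferase gene outside this set. FBL was at 208 FPKM in siCtrl replicate 1 and at 20.4 and 16.3 FPKM in siCtrl replicates 2 and 3, against 282, 303 and 289 FPKM in siANP32B. In this gene siCtrl replicates 2 and 3 lay farther from the siANP32B samples than siCtrl replicate 1 did. Which siCtrl samples are the unusual ones was not tested, and the main calls use all 3. Fits with siCtrl replicate 1 as the only control are therefore given beside the main counts of the members.

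Centromere and kinetochore genes were mostly lower after ANP32B knockdown. Of the 39 members, 33 were lower, 3 were higher (CENPX, ZW10 and CENPB) and 3 were not called (MIS12, CENPP and CENPT) at a Benjamini-Hochberg adjusted p under 0.05 from limma on log2(FPKM + 1), adjusted over all 13945 genes tested. Among all genes tested, 24.6% were lower and 14.6% were higher by the same rule. The median log2 fold change of the members was -0.56, beside -0.06 over all genes tested, and the median member was at 65.3% of its siCtrl mean. All 39 members passed the filter of a mean of at least 1 FPKM, though OIP5 did so through its siCtrl values. Its call therefore adds no support to the count of lower members. With a filter of at least 5 FPKM, which left OIP5 out, 32 of the 37 members tested were lower, beside 32.2% of all genes tested. The same 33 members had every siANP32B sample below every siCtrl sample, which 31.8% of all genes had, and the same 3 had every siANP32B sample above, which 19.3% of all genes had. With siCtrl replicate 1 as the only control, 25 members were lower and 0 higher (30 and 1 at an unadjusted p under 0.05, limma), where 13.6% of all genes were called lower and 8.67% higher. Under median-of-ratios scaling the members again gave 33 lower and 3 higher, while the shares of all genes became 18.5% lower and 19.3% higher.

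**Figure D1:**
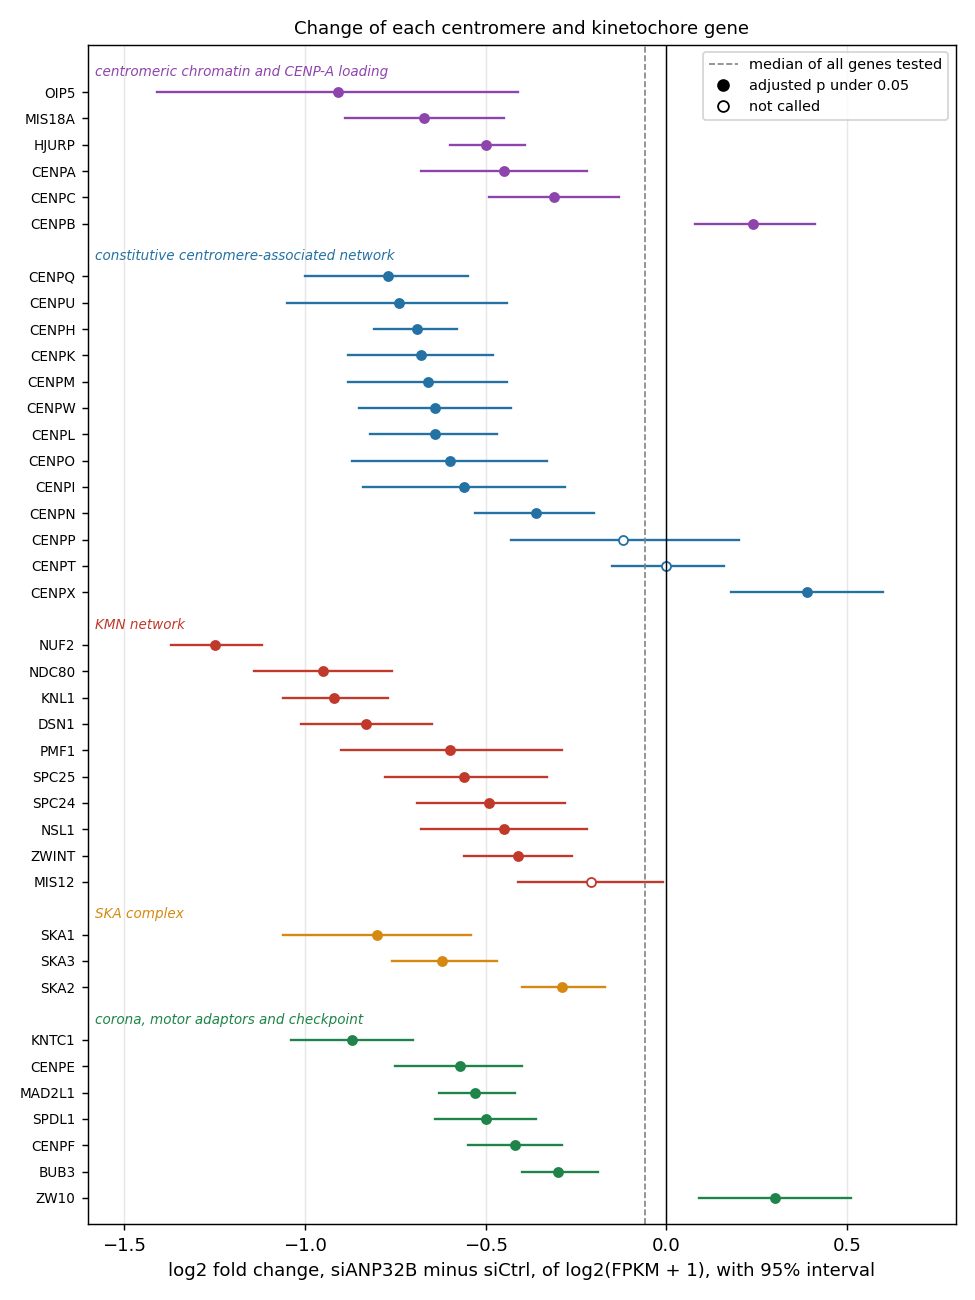
Log2 fold change of each of the 39 genes, siANP32B minus siCtrl, on the log2(FPKM + 1) scale, with its 95% interval from limma. Colours mark the 5 roles, filled points are called genes and open points are not, and the dashed line is the median of all genes tested (-0.06). Most points lie left of the line, NUF2 farthest at -1.25, and CENPX, ZW10 and CENPB lie right of 0.

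The distance from the common level was spread evenly over the samples. Relative to each member's mean over the 6 samples, the median member deviated by -0.27, -0.27 and -0.24 on the log2 scale in siANP32B replicates 1, 2 and 3, and by 0.27, 0.25 and 0.31 in siCtrl replicates 1, 2 and 3. No sample thus stood alone in either group. The coefficient of variation between replicates had a median of 7.82% over the members in siANP32B and of 6.01% in siCtrl, and OIP5 varied most in each group, by 47.0% and 22.2%. Level and change were only weakly related: over the 39 members, which share the same 6 libraries, Spearman's rho between mean level and log2 fold change was 0.13.

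**Figure D2:**
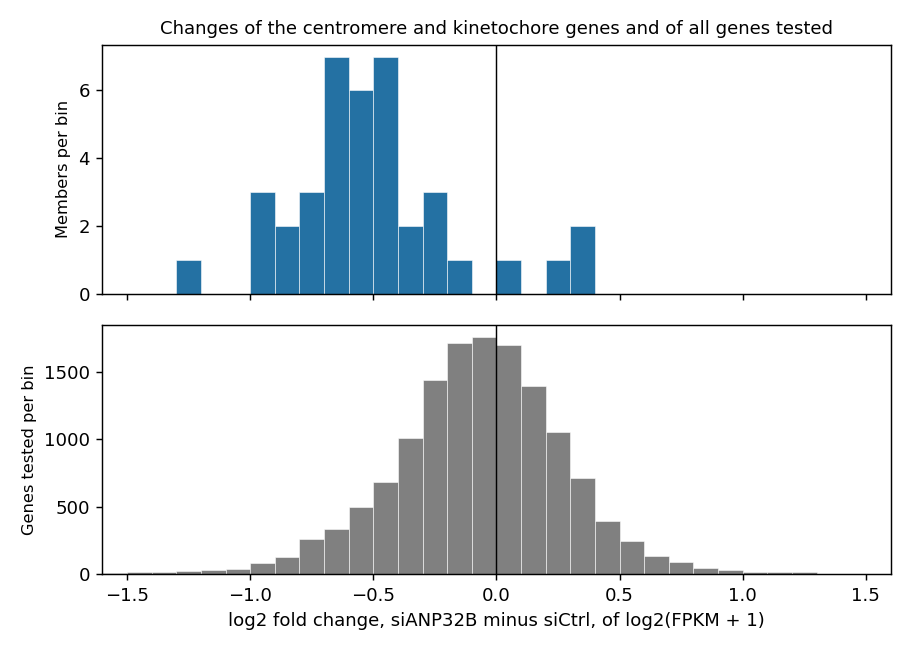
Number of members (top) and of all 13945 genes tested (bottom) in bins of 0.1 of the log2 fold change, siANP32B minus siCtrl. All genes centre near -0.06 and the members near -0.56, with 4 members above 0. The axis ends before the most changed genes tested.

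The promoters of the members were searched for letters known from cell cycle genes. The members were picked by role, and with earlier results of these data known. As many of them are genes of G2 and mitosis, more of these letters than in other genes describes the list. Any relation to ANP32B knockdown was not tested. Many genes of G2 and mitosis carry a cell cycle genes homology region (CHR), a TTTGAA element close to the transcription start that is bound by the DREAM and MMB complexes. In RefSeq promoter windows from 50 bases before to 50 after the start (GRCh38.p14), TTTGAA occurred on either strand in 12 of the 32 members that had a window, or 37.5%, compared with 4.17% of the 9411 genes tested that had a window. All 12 were called lower, as were 14 of the 20 members without it. The median log2 fold change was -0.55 with the letters and -0.50 without them. For none of the letters searched here was the share called lower counted over all genes tested that hold them. The counts among members thus show no link between the letters and the change. A match of letters is a description and not a measured binding site. In the longer window from 250 bases before to 50 after the start, TTTGAA was found in 46.9% of the members and 13.3% of the genes tested (15.2% of all 35116 windows). There, 14 of the 15 members with the letters and 12 of the 17 without them were called lower, and the medians stood in the other order, at -0.50 with the letters and -0.56 without. CCAAT, the letters bound by NF-Y, was found on either strand in 65.6% of the members and 43.4% of the genes tested, and TTCCCGC, an E2F site, in 28.1% and 13.2%. Of the members with TTCCCGC, 6 of 9 were called lower, against 20 of 23 without it, with medians of -0.45 and -0.56. For CCAAT, 17 of 21 members with it and 9 of 11 without it were called lower, with medians of -0.49 and -0.60.
The windows of the most reduced Ndc80 subunits, of the SKA genes that hold the letters and of the 2 higher genes farthest from 0 are printed here, from 50 bases before to 50 after the start, with TTTGAA or its reverse complement in capitals. The 14 lower members without these letters in this window are not among them.
NUF2: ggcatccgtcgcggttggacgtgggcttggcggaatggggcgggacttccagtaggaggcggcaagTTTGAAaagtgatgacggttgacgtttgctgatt
NDC80: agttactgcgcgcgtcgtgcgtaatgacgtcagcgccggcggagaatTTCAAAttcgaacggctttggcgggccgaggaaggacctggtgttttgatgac
SKA1: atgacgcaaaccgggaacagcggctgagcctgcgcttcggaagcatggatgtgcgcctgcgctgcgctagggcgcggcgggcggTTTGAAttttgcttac
SKA3: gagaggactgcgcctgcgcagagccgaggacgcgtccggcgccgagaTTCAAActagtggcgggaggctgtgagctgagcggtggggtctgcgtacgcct
ZW10: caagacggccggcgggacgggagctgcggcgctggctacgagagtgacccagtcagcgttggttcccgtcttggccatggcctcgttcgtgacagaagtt
CENPX: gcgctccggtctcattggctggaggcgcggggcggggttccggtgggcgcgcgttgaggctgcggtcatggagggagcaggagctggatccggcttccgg
These windows lie at chr1:163321904-163322003 (NUF2, forward strand), chr18:2571507-2571606 (NDC80, forward), chr18:50374996-50375095 (SKA1, forward), chr13:21176503-21176602 (SKA3, reverse), chr11:113773643-113773742 (ZW10, reverse) and chr17:82022829-82022928 (CENPX, reverse). The first capital stands 17 bases into the transcribed part in NUF2 and 35 in SKA1, and at -3 relative to the start in NDC80 and SKA3. ZW10 and CENPX show no capitals, which says only that these letters are not in this window; ZW10 has them farther upstream.

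In centromeric chromatin, 5 of the 6 genes were lower after ANP32B knockdown and CENPB was higher, with a median log2 fold change of -0.47. HJURP, the chaperone that deposits CENP-A, was at 35.7, 34.6 and 36.4 FPKM in siANP32B and at 51.4, 50.1 and 50.2 FPKM in siCtrl. Its replicates lay close together and the groups far apart, with a log2 fold change of -0.50 (standard error 0.05, adjusted p = 6.76e-05). MIS18A, a subunit of the Mis18 complex that licenses centromeres for CENP-A, was at 22.6, 29.4 and 29.7 FPKM in siANP32B and at 42.4, 44.3 and 44.4 FPKM in siCtrl. Every knockdown sample was below the controls, and siANP32B replicate 1 was the lowest (log2 fold change -0.67, standard error 0.10, adjusted p = 0.00064). OIP5, its Mis18 partner (Mis18-beta), had the lowest level of all members, at 1.01, 0.373 and 1.06 FPKM in siANP32B and 1.94, 2.24 and 2.97 FPKM in siCtrl. These OIP5 values correspond to at least 14, 5 and 13 fragments in siANP32B and 31, 27 and 38 in siCtrl. The log2 fold change of OIP5 was -0.91 (95% interval -1.41 to -0.41, limma adjusted p = 0.0105) and was thus measured with little depth. OIP5 stood at 34.2% of its siCtrl mean in FPKM, and the log2(FPKM + 1) scale gives smaller changes at such low levels. As OIP5 passed the filter only through its siCtrl values, its call is not support for the fall of this group. With the filter of at least 5 FPKM, 4 genes of the group were called lower. OIP5 also shares 470 of its 1236 exon bases with OIP5-AS1 on the opposite strand, which was at 84.7 to 96.9 FPKM in siANP32B and 95.2 to 107 FPKM in siCtrl, and whether counting used strand is not stated in the labels or the methods.
CENPA, the centromeric histone itself, was at 9.73, 11.4 and 10.7 FPKM in siANP32B and at 12.9, 15.2 and 16.5 FPKM in siCtrl (log2 fold change -0.45, standard error 0.10, adjusted p = 0.00769). CENPA shares 138 of its 1983 exon bases with SLC35F6 on the same strand. SLC35F6 was at 40.1 to 40.7 FPKM in siANP32B and 43.6 to 46.1 FPKM in siCtrl, and its part in the level of CENPA was not tested. CENPC, which links CENP-A nucleosomes to the outer kinetochore, fell to 79.4% of the siCtrl mean (log2 fold change -0.31, adjusted p = 0.013, and adjusted p = 0.0512 without siCtrl replicate 1). CENPB, which binds the CENP-B box of alpha-satellite DNA, moved the other way, at 41.9, 36.8 and 44.7 FPKM in siANP32B and 34.5, 33.6 and 35.3 FPKM in siCtrl. Its groups did not overlap, but siANP32B replicate 2 came within a small distance of the highest control (log2 fold change 0.24, standard error 0.07, adjusted p = 0.0248). The ratio of CENPB to CENPA in FPKM was 4.30, 3.22 and 4.19 in siANP32B and 2.67, 2.21 and 2.14 in siCtrl. These ratios had to lie apart, as CENPB was higher and CENPA lower in every siANP32B sample, and they were not tested. Against siCtrl replicate 1 alone, HJURP and MIS18A remained called, whereas CENPA (adjusted p = 0.194), CENPB (0.174), CENPC (0.0532) and OIP5 (0.184) were not.

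The CCAN fell in 10 of its 13 genes, with a median log2 fold change of -0.64, while CENPX was higher and CENPP and CENPT were not called. The 4 subunits of the CENP-HIKM group were all lower, with log2 fold changes of -0.69 to -0.56. Within it CENPH was at 37.8, 38.5 and 37.3 FPKM in siANP32B, against 65.3, 61.5 and 59.0 FPKM in siCtrl (log2 fold change -0.69, standard error 0.05, adjusted p = 1.89e-05). CENPK was at 13.9, 15.5 and 14.0 FPKM in siANP32B, against 24.6, 21.0 and 25.9 FPKM in siCtrl (log2 fold change -0.68, standard error 0.09, adjusted p = 0.000373). For either gene the siANP32B samples lay within a narrow band that was well below the controls. CENPL, which forms with CENPN a pair that contacts CENP-A nucleosomes and the other CCAN subunits, was at 11.6, 11.0 and 11.4 FPKM in siANP32B and 18.5, 16.7 and 19.4 FPKM in siCtrl with a log2 fold change of -0.64 and adjusted p = 0.000248 (standard error 0.08). CENPQ, a subunit of the CENP-OPQUR group, had the largest fall of the CCAN, at 8.55, 10.9 and 8.51 FPKM in siANP32B and 16.8, 16.8 and 16.1 FPKM in siCtrl (log2 fold change -0.77, standard error 0.10, adjusted p = 0.000338). The remaining 6 lower genes (CENPM, CENPW, CENPU, CENPN, CENPO and CENPI) were at 58.9% to 76.4% of their siCtrl means, with adjusted p of 0.000682 to 0.00642. Against siCtrl replicate 1 alone, 8 CCAN genes were lower, CENPN (adjusted p = 0.116) and CENPO (0.0966) losing their calls.
The histone-fold subunits CENPT, CENPW and CENPX of the CENP-T-W-S-X group did not move together. CENPW was at 21.4, 16.3 and 19.1 FPKM in siANP32B and 29.3, 28.8 and 31.7 FPKM in siCtrl (log2 fold change -0.64, standard error 0.09, adjusted p = 0.000687). Its partner CENPT, which carries the long arm that recruits the Ndc80 complex, was at 48.0, 57.4 and 53.7 FPKM in siANP32B and 52.6, 50.9 and 55.2 FPKM in siCtrl, groups that overlapped fully. The log2 fold change of CENPT was 0.00, with a 95% interval of -0.15 to 0.16 (adjusted p = 0.993). CENPT shares exon bases with 3 genes on the opposite strand, among them 110 of its 5539 bases with NUTF2. NUTF2 was at 157 to 164 FPKM in siANP32B and 123 to 131 FPKM in siCtrl, and its part in the level of CENPT was not tested. CENPX, which also works in the Fanconi anemia pathway as MHF2, was at 47.2, 54.8 and 57.3 FPKM in siANP32B and 41.3, 35.4 and 44.0 FPKM in siCtrl. This was the largest rise of all 39 members (log2 fold change 0.39, standard error 0.09, adjusted p = 0.00896), but against siCtrl replicate 1 alone it was not called (adjusted p = 0.0717). CENPX stood at 2.20, 3.36 and 3.0 times CENPW in siANP32B and at 1.41, 1.23 and 1.38 times CENPW in siCtrl. That gap follows from CENPX being higher and CENPW lower in every siANP32B sample, and it was not tested. CENPP, a CENP-OPQUR subunit, was at 3.21, 3.78 and 4.01 FPKM in siANP32B and 4.82, 3.76 and 3.63 FPKM in siCtrl (log2 fold change -0.12, 95% interval -0.43 to 0.20, adjusted p = 0.555). CENPP shares 3719 of its 9794 exon bases with IPPK on the opposite strand, which was at 15.4 to 16.1 FPKM in siANP32B and 13.2 to 13.9 FPKM in siCtrl. The part of such shared bases in the level of CENPP was not tested.

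**Figure D3:**
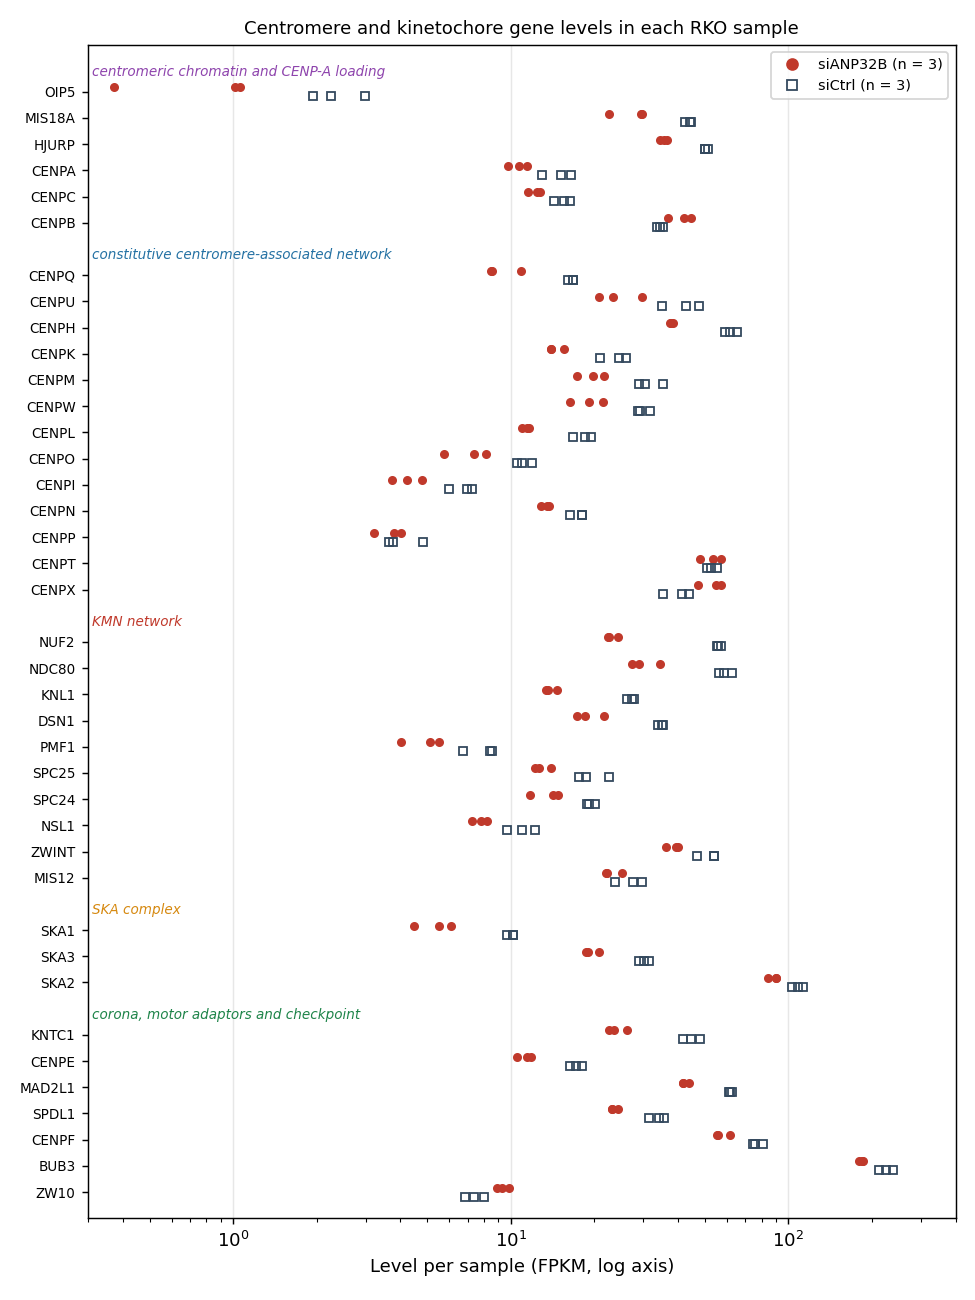
Level of each of the 39 genes in every sample, in FPKM on a log axis, with siANP32B as filled circles and siCtrl as open squares below them. The 2 groups are apart in 36 genes, with siANP32B lower in 33, and overlap in CENPP, CENPT and MIS12.

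The KMN network had 9 of 10 genes lower, with a median log2 fold change of -0.58 and a range of -1.25 to -0.21. NUF2 of the Ndc80 complex was at 22.3, 22.6 and 24.4 FPKM in siANP32B and at 55.5, 57.3 and 55.7 FPKM in siCtrl, a 2.43-fold decrease. Replicates of NUF2 differed by far less than the groups (log2 fold change -1.25, standard error 0.05, adjusted p = 1.54e-06). From the most negative change upwards, NUF2 ranked at place 62 of 13945 genes. Its partner NDC80 (HEC1), which holds the microtubule-binding head, was at 27.3, 28.9 and 34.6 FPKM in siANP32B and 62.5, 56.2 and 58.8 FPKM in siCtrl (log2 fold change -0.95, standard error 0.09, adjusted p = 4.89e-05). KNL1, the scaffold on which checkpoint proteins BUB1 and BUB3 gather, was at 14.7, 13.4 and 13.6 FPKM in siANP32B and 27.3, 26.3 and 27.7 FPKM in siCtrl (log2 fold change -0.92, standard error 0.06, adjusted p = 1.39e-05). These genes stood at 41.1% (NUF2), 51.2% (NDC80) and 51.3% (KNL1) of their siCtrl means.
The Mis12 complex, which ties the KMN network to CENP-C and CENP-T, was uneven. DSN1, its subunit controlled by Aurora B phosphorylation, was at 17.3, 18.5 and 21.6 FPKM in siANP32B and 33.9, 34.9 and 35.3 FPKM in siCtrl (log2 fold change -0.83, standard error 0.08, adjusted p = 6.9e-05). MIS12 was at 22, 22.2 and 25.2 FPKM in siANP32B and 27.5, 29.6 and 23.8 FPKM in siCtrl, where siCtrl replicate 3 fell among the knockdown samples. The log2 fold change of MIS12 was -0.21, with a 95% interval of -0.41 to -0.01 (adjusted p = 0.0957), and it was called lower without siCtrl replicate 3 (adjusted p = 0.0282) and with limma-voom on all samples (adjusted p = 0.0481). The other subunits, PMF1 and NSL1, were lower together with ZWINT, SPC24 and SPC25, at 62.0% to 74.7% of their siCtrl means and adjusted p of 0.0014 to 0.00764. Of these, SPC24, SPC25 and PMF1 were not called against siCtrl replicate 1 alone (adjusted p = 0.0621, 0.0520 and 0.197).
Within the Ndc80 complex, the subunits of the 2 ends changed by different amounts. SPC24 and SPC25 form the end that binds the inner kinetochore, and were singled out here after their values were seen. SPC24 was at 11.7, 14.2 and 14.8 FPKM in siANP32B and 19.1, 20.1 and 18.8 FPKM in siCtrl. SPC25 was at 12.2, 12.6 and 14.0 FPKM in siANP32B and 17.6, 18.6 and 22.5 FPKM in siCtrl. Summed FPKM of NDC80 and NUF2 over that of SPC24 and SPC25 was 2.07, 1.93 and 2.05 in siANP32B and 3.22, 2.94 and 2.77 in siCtrl, so the ratio was lower in every knockdown sample. No test was made of this ratio, which was chosen after the values were seen.

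**Figure D4:**
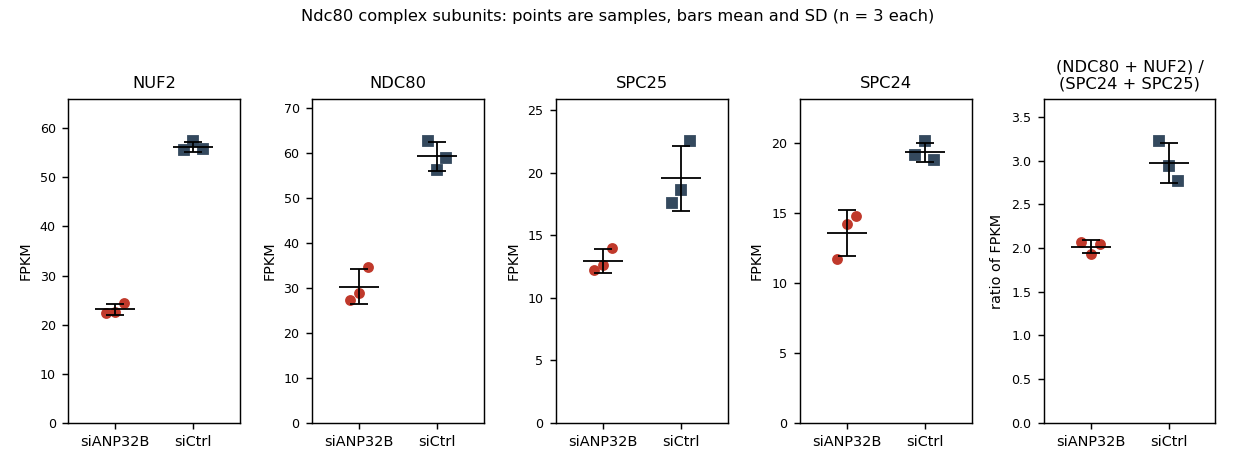
FPKM of the 4 Ndc80 complex genes and the ratio of their sums, with siANP32B left and siCtrl right. Points are samples and bars the mean and SD (n = 3 each). All 4 genes are lower in siANP32B, and the ratio is 2.02 ± 0.0785 in siANP32B and 2.98 ± 0.229 in siCtrl.

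All 3 genes of the SKA complex, which tracks microtubule ends beside the Ndc80 complex, were lower, with a median log2 fold change of -0.62. SKA1, which carries its microtubule-binding domain, was at 6.11, 4.46 and 5.52 FPKM in siANP32B and 10.2, 9.65 and 10.2 FPKM in siCtrl (log2 fold change -0.80, standard error 0.11, adjusted p = 0.000622). SKA3, through which the complex docks on Ndc80, was at 18.6, 19.0 and 20.7 FPKM in siANP32B and 31.5, 29 and 30.3 FPKM in siCtrl (log2 fold change -0.62, standard error 0.06, adjusted p = 0.000115). SKA2, the small subunit that holds the others together, was at 90.4, 84.2 and 90.0 FPKM in siANP32B and 108, 113 and 103 FPKM in siCtrl (log2 fold change -0.29, standard error 0.05, adjusted p = 0.0018). SKA2 was thus the most abundant of the complex per length and the one with the smallest fold change. The 95% intervals were -0.40 to -0.17 for SKA2, -0.76 to -0.47 for SKA3 and -1.06 to -0.54 for SKA1. Each interval belongs to 1 gene, and the difference between the genes was not tested. SKA2 over the sum of SKA1 and SKA3 was 3.66, 3.6 and 3.43 in siANP32B and 2.6, 2.91 and 2.53 in siCtrl. This ratio was not tested. The 3 genes were called in all 14 alternatives.

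By median change, the CCAN (-0.64), the SKA complex (-0.62) and the KMN network (-0.58) lay close to each other, and centromeric chromatin (-0.47) and the corona group (-0.50) somewhat nearer to 0. The ranges overlapped throughout, from -0.77 to 0.39 in the CCAN, -0.80 to -0.29 in the SKA complex, -1.25 to -0.21 in the KMN network, -0.91 to 0.24 in centromeric chromatin and -0.87 to 0.30 in the corona group. No test was made between the groups. Members that were not lower came from 4 of the 5 groups, the SKA complex being the exception.

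Among the corona, motor adaptors and checkpoint genes, 6 of 7 were lower and ZW10 was higher. KNTC1, which encodes the ROD subunit of the RZZ complex that builds the corona, was at 26.3, 23.6 and 22.5 FPKM in siANP32B and 48.2, 41.6 and 44.6 FPKM in siCtrl (log2 fold change -0.87, standard error 0.08, adjusted p = 4.05e-05). ZW10, another RZZ subunit that also serves membrane traffic between ER and Golgi, was at 8.95, 9.29 and 9.85 FPKM in siANP32B and 8.02, 7.36 and 6.86 FPKM in siCtrl (log2 fold change 0.30, standard error 0.09, adjusted p = 0.0291). KNTC1 over ZW10 was therefore 2.94, 2.54 and 2.28 in siANP32B and 6.0, 5.66 and 6.5 in siCtrl. With KNTC1 lower and ZW10 higher in every siANP32B sample, the groups could not overlap, and the ratio was not tested. ZW10 was near the threshold for a call, while its log2 fold change stayed at 0.25 to 0.35 when any 1 sample was left out. It was called in 7 of 14 alternatives, with adjusted p of 0.0117 to 0.31, and lost its call without siANP32B replicate 2 (0.0691), siANP32B replicate 3 (0.0898), siCtrl replicate 2 (0.0627) or siCtrl replicate 3 (0.0949). CENPB was called in 8 of 14 (adjusted p 0.00227 to 0.174) and not without siANP32B replicate 1 (0.0702), siANP32B replicate 3 (0.0799), siCtrl replicate 1 (0.0593) or siCtrl replicate 2 (0.0713).
MAD2L1, the checkpoint protein that holds back CDC20, was at 41.8, 44.0 and 41.8 FPKM in siANP32B and 61.4, 62.4 and 61.2 FPKM in siCtrl (log2 fold change -0.53, standard error 0.05, adjusted p = 4.12e-05). SPDL1 (Spindly), the adaptor that brings dynein to kinetochores, was at 23.2, 24.3 and 23.1 FPKM in siANP32B and 34.1, 31.4 and 35.5 FPKM in siCtrl (log2 fold change -0.50, standard error 0.06, adjusted p = 0.000293). CENPE, a plus-end kinesin that carries chromosomes to the metaphase plate, was at 11.8, 11.4 and 10.5 FPKM in siANP32B and 18.1, 16.4 and 17.2 FPKM in siCtrl (log2 fold change -0.57, standard error 0.08, adjusted p = 0.000419). All 3 had tight replicates and groups apart. CENPF, a large coiled-coil protein of the corona, and BUB3, a checkpoint protein and the most abundant member per length at 183 ± 2.61 FPKM in siANP32B and 226 ± 13.5 FPKM in siCtrl (mean ± S.D., n = 3 each), fell to 74.6% and 81.2% of the siCtrl mean (adjusted p = 0.000525 and 0.0011).

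The other genes of the kinetochore, a list of 26 genes, went the same way. The list was written from known roles but with earlier results of these data known, so its counts are a description and not separate evidence. Of these genes, 20 were lower, 1 was higher and 4 were not called, beside 24.6% lower and 14.6% higher among all genes tested. CENPS, at 0.538, 0.555 and 0.504 FPKM in siANP32B and 0.697, 0.206 and 0.968 FPKM in siCtrl, did not pass the filter. The median log2 fold change of the 25 tested genes was -0.55. All 6 genes of the chromosomal passenger complex and the shugoshins, which make up the inner centromere, were lower. SGO2, a shugoshin, was at 14.4, 14.3 and 11.7 FPKM in siANP32B and 29.6, 27.6 and 29.8 FPKM in siCtrl (log2 fold change -1.06, adjusted p = 2.74e-05), and CDCA8 (borealin) had a log2 fold change of -0.86 (adjusted p = 2.04e-05). AURKB, INCENP, BIRC5 and SGO1 were at 52.5% to 75.8% of their siCtrl means.
Of 8 genes of the checkpoint and its silencing, 6 were lower, among them CDC20, the activator of the anaphase-promoting complex (log2 fold change -0.86, adjusted p = 2.35e-05), and BUB1B, which encodes BUBR1 (log2 fold change -0.51, adjusted p = 0.000144). TRIP13, the ATPase that remodels MAD2 (log2 fold change -0.12, 95% interval -0.26 to 0.01), and MAD1L1, at 1.69, 1.10 and 1.13 FPKM in siANP32B and 1.24, 0.862 and 1.69 FPKM in siCtrl, were not called. ITGB3BP (CENP-R), a further subunit of the CCAN, had a log2 fold change of -0.55 (adjusted p = 0.00114), and CENPV was not called (log2 fold change 0.09, 95% interval -0.11 to 0.29), though it was higher without siANP32B replicate 2 (0.20, adjusted p = 0.0366). Among 8 regulators of kinetochore microtubules, 6 were lower, with KIF2C (MCAK) at -0.69 and PLK1 at -0.82 on the log2 scale (adjusted p = 3.77e-05 and 5.1e-05). CLASP2 was not called (log2 fold change -0.11, 95% interval -0.28 to 0.05), and BOD1 was higher by 0.14 on the log2 scale (adjusted p = 0.0323). BOD1 lost this call without any 1 of 5 samples, all but siANP32B replicate 1 (adjusted p = 0.0567 to 0.0947), and with limma-voom (0.0879). The calls of CKAP5 and CLASP1, whose falls were the smallest among the called genes of the list, were lost with median-of-ratios scaling (adjusted p = 0.0524 and 0.105), and that of CLASP1 also without siANP32B replicate 2 (0.057), siANP32B replicate 3 (0.0568), siCtrl replicate 1 (0.0596) or siCtrl replicate 2 (0.0511).

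Of the 39 members, 15 share exon bases with another gene in GENCODE 29, and their values may hold reads of that gene. The 9 pseudogenes named after a member reached at most 0.426 FPKM in any sample.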

How the data were processed

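RNA sequencing of RKO cells, with 3 siANP32B and 3 siCtrl samples mapped by their titles, was analysed. The deposited values are FPKM, made by the authors from sequencing reads; Bowtie2, RSEM, DESeq2 and GRCh38 are listed in the submitters' processing notes. Not stated in the labels or methods used here are versions, annotation, gene length, filters and strand. The files do not name the unit. Of 17961 genes detected in every sample, 17959 had values that were whole fragments over 1 gene length within 0.002; the totals follow from GENCODE 29 exon lengths, and fragments of single genes are the smallest possible. Of 61204 rows, 60671 have an Ensembl ID and 58453 of these are in GENCODE 29.

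limma 3.58.1 in R 4.3.3 was run with a variance trend on log2(FPKM + 1) for 13945 genes (mean over all samples at least 1 FPKM), without a block, two-sided, with Benjamini-Hochberg adjustment over all of them; fold changes on this scale understate those of low genes. The procedure was also run on simulated counts with few changed genes and the same scatter setting for every gene. Such a run does not show how it performs on these data. Tables and figures used Python 3.11.15, numpy 2.4.6, pandas 2.3.3 and matplotlib 3.10.9. Promoter windows came from RefSeq (GRCh38.p14), matched by symbol for 32 of 39 members. The members and lists were chosen with earlier results of these data known. Named genes were the 4 called members of each role with the smallest adjusted p, every member not lower, the 2 called genes with the smallest adjusted p of each other list and every gene of these lists not lower; the values of 1 gene that this rule names are not reported here. Alternatives were a pseudocount of 0.1, no filter, a mean of at least 5 FPKM, 2 scalings, limma-voom on fragments, siCtrl replicate 1 as the only control, each sample left out and the replicate number as a block.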

Additional observations from a re-analysis of the deposited data

How the results depend on the processing

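The count of lower members was 32 to 34 when any 1 sample was left out and 25 against siCtrl replicate 1 alone, a fit with fewer samples whose lone control is assumed to vary like the siANP32B samples. In that fit 1899 of all genes were lower and 1209 higher, 0 members were higher, and 2 members of centromeric chromatin were lower. The 3 higher members became 1 without a filter and 1 to 2 when any 1 sample was left out, and CENPX remained called in 13 of 14 alternatives. The members' median log2 fold change was -0.61 with a pseudocount of 0.1, -0.50 with either median-of-ratios or upper-quartile scaling, -0.62 with limma-voom, -0.53 against siCtrl replicate 1 alone and -0.59 to -0.52 when any 1 sample was left out. These scalings moved the median of all genes by under 0.1. CENPT, not called in any setting, had a log2 fold change of -0.00 with limma-voom and of -0.06 to 0.07 when any 1 sample was left out, and MAD1L1 of -0.10 to 0.16. With the replicate number as a block, 33 members were lower and 2 higher, ZW10 losing its call (adjusted p = 0.0543), and no other member's call changed. Same-numbered samples did not deviate together (correlations of their deviations from the group means 0.021, -0.006 and -0.003 for numbers 1, 2 and 3), so the numbers were not taken to pair the samples. Depth limits low genes such as OIP5, CENPS and MAD1L1.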
